A study of Mus musculus with 12 samples.

Results

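Mir22hg and Wincr1 are 2 mouse genes for long noncoding RNAs, each read by 1 probe (named gi|262263294|ref|NR_030711.1| and gi|295148149|ref|NR_033533.1|) of a custom Agilent array on which 97836 probes outside the controls were printed. The probes were taken by the RefSeq records they were designed on, and the pair was selected on the levels measured here, which were known to be higher with cobalt chloride (CoCl2) and with disruption of Hif1a in these arrays. All levels and differences of the 2 transcripts are therefore given as a description, with standard errors and with no test. Both probes passed the filter on dim probes, which left 70784 features for the fit across the array.

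The RNA was from the vascular smooth muscle cells (VSMCs) of mice, all male, in 4 groups of 3 arrays. The control genotype, Hif1afl/fl, carried floxed and intact alleles of Hif1a, and its cells are called floxed here. The other genotype, Hif1a△SMC, had Hif1a disrupted specifically in VSMCs, and its cells are called deleted; the driver of the recombinase is not named in the labels. Each genotype was kept for 24 h with 150 µM CoCl2 or with the same volume of phosphate-buffered saline (PBS). Whether the 3 RNAs within a group stem from separate mice or cultures is not stated in the labels, so errors measure only the spread between arrays, which may be technical. The deletion could not be checked, because no probe matched a record of Hif1a by accession, and none of 20 markers of smooth muscle and other cell types was matched either. Agilent catalogue probes on the array came without gene names, so probes for these genes may be present but could not be identified. In RNA from whole cultures, fewer cells of a type and less RNA per cell cannot be told apart.

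Hypoxia-inducible factor 1 is a dimer whose alpha subunit, encoded by Hif1a, is hydroxylated and degraded when oxygen is present. Cobalt ions block that hydroxylation, so CoCl2 stabilises the alpha subunit, but cobalt also acts on cells by other routes, including metal and oxidative stress. Mir22hg is the host transcript of the microRNA miR-22, which is processed from it and is known in smooth muscle as a regulator of the switch between the contractile and the proliferative state. Wincr1, for Wnt-induced noncoding RNA, was described as a transcript induced by Wnt and beta-catenin signalling in dermal fibroblasts.

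In the RefSeq annotation Mir22hg lies on chromosome 11 between Wdr81 and Tlcd2, and Mir22 lies within it. The array reads the host transcript and held no probe matched by accession to Mir22 itself, so no level of the microRNA is given. Its 2 mature products are shown because they are what the host transcript is processed to, with the seed, bases 2 to 8, in capitals (RefSeq, GRCm38.p6, plus strand).
mmu-miR-22-5p, chr11:75463734-75463755: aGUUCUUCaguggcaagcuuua
mmu-miR-22-3p, chr11:75463772-75463793: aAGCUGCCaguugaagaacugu
None of the other mature sequences in the table of 1738 entries shared either seed.

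Wincr1 lies on chromosome 4, in the stretch between the type I interferon genes and the cell cycle inhibitor genes Cdkn2a and Cdkn2b. Its neighbours on the interferon side include Mir31 and Ifne, and Mtap, an enzyme of methionine salvage, is the nearest protein-coding gene on the other side. Cdkn2a stands 6 places and Cdkn2b 8 places from it in gene order.

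The promoter windows, 250 bases before to 50 bases after each annotated start, are shown because the groups differ in a transcription factor with a known binding core. The capitals mark every match to that core, ACGTG or GCGTG, read on both strands (RefSeq, GRCm38.p6, both windows on the plus strand).
Mir22hg, chr11:75461289-75461588: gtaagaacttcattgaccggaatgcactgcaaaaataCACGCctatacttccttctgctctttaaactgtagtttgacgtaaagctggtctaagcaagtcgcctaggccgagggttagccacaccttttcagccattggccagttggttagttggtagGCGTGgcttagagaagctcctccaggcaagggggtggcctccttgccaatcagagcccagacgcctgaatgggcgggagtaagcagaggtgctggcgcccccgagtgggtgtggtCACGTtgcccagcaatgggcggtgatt
Wincr1, chr4:89050057-89050356: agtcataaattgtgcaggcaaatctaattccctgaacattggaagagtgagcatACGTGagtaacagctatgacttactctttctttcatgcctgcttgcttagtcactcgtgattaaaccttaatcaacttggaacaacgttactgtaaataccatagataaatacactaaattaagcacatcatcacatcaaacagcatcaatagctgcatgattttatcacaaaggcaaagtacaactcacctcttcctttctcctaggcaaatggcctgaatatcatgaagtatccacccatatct
The Mir22hg window held 3 matches, starting 213 and 92 bases before the start and 24 bases after it. The Wincr1 window held 1 match, starting 196 bases before the start. Of 32851 windows of this length in the table, 43.8% held at least 1 match. A match is a run of letters and not a measured binding site.

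The windows also differed in composition. The Mir22hg window had 54.7% G and C and 12 CpG dinucleotides, against medians of 52.7% and 7 over all windows. The Wincr1 window had 37.7% G and C and 3 CpG dinucleotides. The GC box GGGCGG was found 2 times for Mir22hg and was not found for Wincr1 (35.7% of all windows), and CCAAT was found 2 times and 1 time (37.4%). The antioxidant response element core TGACNNNGC was found 1 time, in the Wincr1 window (12.4% of windows). Neither window held the E-box CACGTG, whose letters overlap the hypoxia core (7.15%), the AP-1 element TGANTCA (7.81%), the metal response element core TGCACNC or TGCGCNC (25.7%), the TCF and LEF letters CTTTG followed by AA, AT, TA or TT (16.9%), or TATAAA (13.6%). All motifs were read on both strands.

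Levels below are log2 of the processed signal minus the 75th percentile of the same array, so 0 is the upper quartile of an array. That percentile was itself lower on the arrays of deleted cells with CoCl2, at 8.09 to 8.28 on the log2 scale, than on the other 9 arrays, at 9.02 to 9.52. Fewer probes were well above background there, 51.9% to 58.5% against 67.7% to 82.7%. The probes at the 3′ and 5′ ends of control transcripts, a sign of RNA quality, also differed between groups. For Pgk1, the 3′ minus 5′ difference (log2) was 2.79 to 2.84 in floxed cells with PBS and 2.70 to 2.75 with CoCl2, and 3.01 to 3.11 and 2.46 to 2.82 in deleted cells. For Gapdh it was -2.33 to -2.30 and -2.06 to -1.84 in floxed cells, and -2.35 to -2.18 and -2.22 to -1.96 in deleted cells. The ranges with PBS and with CoCl2 did not overlap in floxed cells for either control, nor in deleted cells for Pgk1. The controls moved in opposite directions in floxed cells, with Pgk1 lower and Gapdh higher with CoCl2, so they show no common shift. The part of these differences in the results was not tested. Unscaled values are therefore given beside the scaled ones. Each transcript was printed on 2 spots, and all 24 spots of each were well above background, none saturated and none marked as an outlier. The processed signal of the Mir22hg spots ran from 2914 to 5921 and that of the Wincr1 spots from 934 to 2213, over local backgrounds of 21 to 29.5. The 2 spots of an array differed by a median of 0.078 (log2) for Mir22hg, at most 0.182, and by 0.115 for Wincr1, at most 0.257.

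For Mir22hg, the host of miR-22, scaled levels in floxed cells with PBS were 2.39, 2.32 and 2.40. With CoCl2 the floxed cells gave 3.12, 2.98 and 3.26. In deleted cells they were 2.68, 2.56 and 2.87 with PBS, and 4.13, 3.82 and 3.59 with CoCl2. The 4 groups took 4 separate ranges: floxed PBS was lowest, deleted PBS came next, floxed CoCl2 followed and deleted CoCl2 was highest. The group means ± SD (n = 3) were 2.37 ± 0.04 in floxed cells with PBS and 3.12 ± 0.14 with CoCl2, and 2.71 ± 0.16 and 3.85 ± 0.27 in deleted cells. The spread within a group was narrowest in floxed cells with PBS and widest in deleted cells with CoCl2.

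Without scaling, the log2 signals of Mir22hg were 11.59, 11.72 and 11.92 in floxed cells with PBS, and 12.25, 12.40 and 12.50 with CoCl2. In deleted cells they were 11.70, 11.60 and 12.04 with PBS, and 12.22, 12.11 and 11.71 with CoCl2. On this scale the floxed CoCl2 arrays stood above all 9 others, and the other 3 groups overlapped.

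For Wincr1, scaled levels in floxed cells were 0.79, 0.59 and 0.94 with PBS, and 1.97, 1.42 and 1.66 with CoCl2. Deleted cells gave 1.72, 1.37 and 1.67 with PBS, and 2.75, 2.61 and 2.98 with CoCl2. Floxed PBS was lowest and deleted CoCl2 highest, each apart from all other arrays, while floxed CoCl2 and deleted PBS lay in the same range. The means ± SD (n = 3) were 0.77 ± 0.18 and 1.68 ± 0.28 in floxed cells, and 1.59 ± 0.19 and 2.78 ± 0.19 in deleted cells, PBS before CoCl2. On the scaled values, the deleted cells with PBS thus had a Wincr1 level near that of floxed cells with CoCl2, which was not so for Mir22hg.

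Unscaled, Wincr1 was at 9.98, 9.99 and 10.45 in floxed cells with PBS and at 11.10, 10.84 and 10.91 with CoCl2. It was at 10.74, 10.40 and 10.83 in deleted cells with PBS, and at 10.84, 10.89 and 11.10 with CoCl2. The floxed PBS arrays remained the lowest group by mean, with 1 array inside the range of deleted PBS, and both CoCl2 groups shared the same range. The deleted PBS arrays all lay below the floxed CoCl2 arrays, with means of 10.66 and 10.95.

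**Figure D1:**
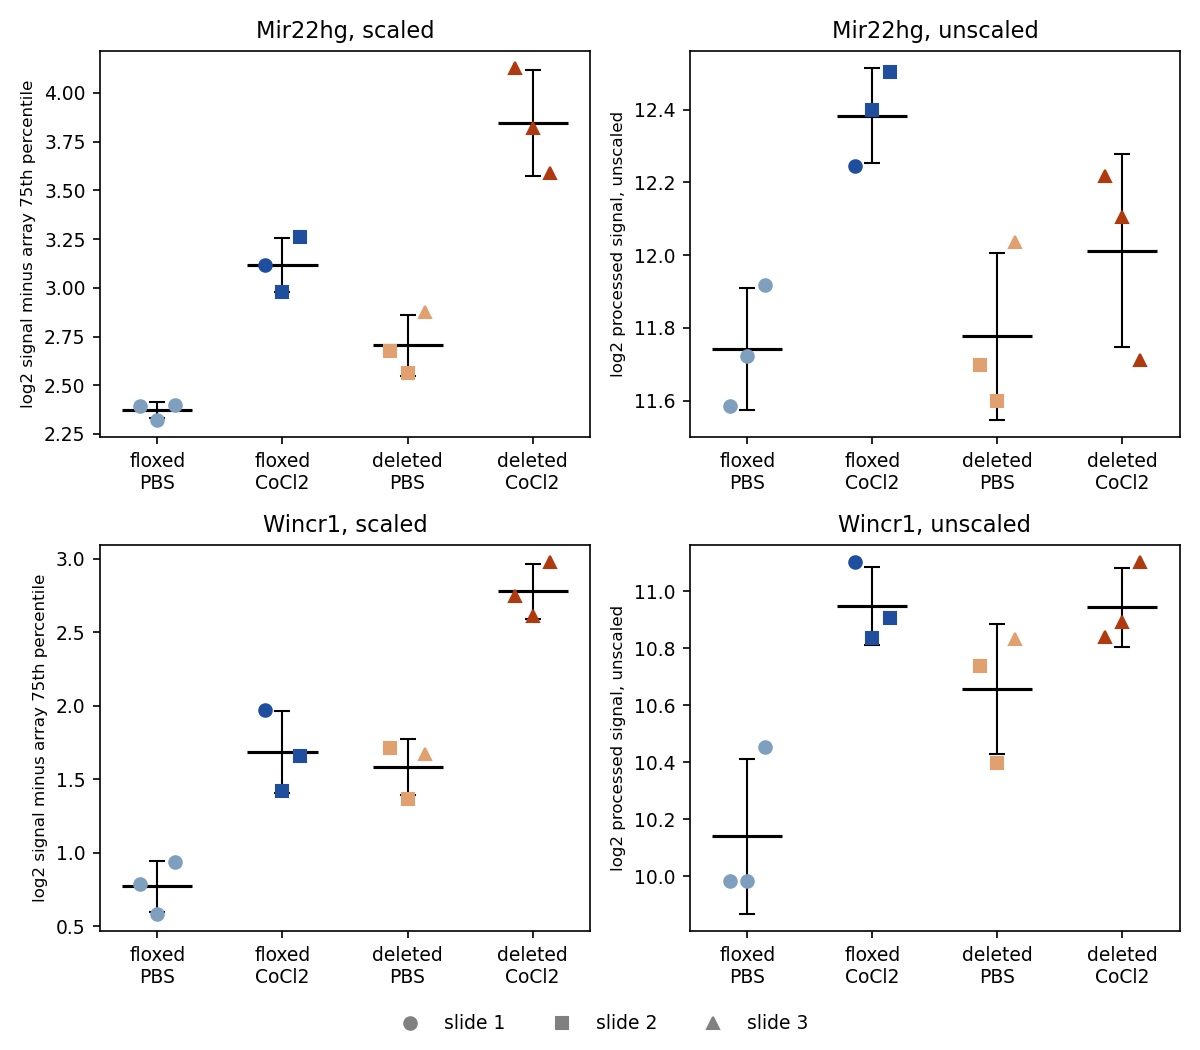
Levels of Mir22hg (top) and Wincr1 (bottom) on each of the 12 arrays, as log2 signal minus the array's 75th percentile (left) and as unscaled log2 signal (right). Points are arrays, with the slide as the symbol, and bars are the mean ± SD of 3 arrays. The vertical axes differ between panels and do not start at 0. On the left the deleted CoCl2 arrays are highest for both transcripts, and on the right they lie within or below the range of the floxed CoCl2 arrays.

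In floxed cells, where Hif1a is intact, both transcripts were higher with CoCl2 on either scale. Mir22hg was higher by 0.75 (SE 0.17) on the scaled log2 scale, a fold of 1.68, and by 0.64 (SE 0.20) without scaling. Wincr1 was higher by 0.91 (SE 0.19), a fold of 1.88, and by 0.81 (SE 0.20) without scaling. The CoCl2 and PBS arrays did not overlap for either transcript, as for 12.8% of all features tested in this direction on the scaled values and 6.33% on the unscaled ones. The difference was present on both spots of each probe, at 0.67 and 0.82 for Mir22hg and 0.95 and 0.88 for Wincr1.

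In deleted cells both transcripts were also higher with CoCl2 on the scaled values. The size of that difference rested on the scaling, and for Mir22hg so did the separation of the groups. Mir22hg was higher by 1.14 (SE 0.17), a fold of 2.20, and Wincr1 by 1.19 (SE 0.19), a fold of 2.29. The groups did not overlap for either transcript, as for 24.4% of all features in this direction. Without scaling the differences were 0.24 (SE 0.20) for Mir22hg, whose groups then overlapped, and 0.29 (SE 0.20) for Wincr1, whose groups stayed apart by a margin smaller than the spread within either group, as for 1.24% of all features. The median feature changed by -1.03 in the same unscaled contrast and by -0.13 in the scaled one. Minus that median, the difference was 1.27 for Mir22hg and 1.32 for Wincr1, which a constant per array cannot change. With quantile normalization or normexp, which can, it was 0.81 to 0.85 for Mir22hg and 0.81 to 0.96 for Wincr1.

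In PBS, the deleted cells had more Wincr1 than the floxed cells, and for Mir22hg the difference was small. Wincr1 was higher by 0.81 (SE 0.19), a fold of 1.76, and by 0.52 (SE 0.20) without scaling, where 1 floxed array lay inside the deleted range. Mir22hg was higher by 0.33 (SE 0.17), a fold of 1.26, and by 0.03 (SE 0.20) without scaling. On the scaled values the groups did not overlap for either transcript, as for 22% of all features in this direction. No slide held PBS arrays of both genotypes, or CoCl2 arrays of both, so no genotype difference could be read within a slide.

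With CoCl2, the direction of the genotype difference turned with the scaling. Scaled, Mir22hg was higher in deleted cells by 0.73 (SE 0.17), a fold of 1.66, and Wincr1 by 1.09 (SE 0.19), a fold of 2.13. The groups did not overlap for either, as for 32% of all features in this direction. Without scaling, Mir22hg was at -0.37 (SE 0.20), with all deleted arrays below all floxed ones, as for 70.2% of all features, and Wincr1 was at -0.0042 (SE 0.20), with groups that overlapped. The median feature changed by -1.03 in that unscaled contrast. These comparisons share arrays: both genotype contrasts use groups that also enter the CoCl2 contrasts, so their values are not independent of each other.

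The CoCl2 difference in deleted cells minus that in floxed cells was 0.39 (SE 0.23) for Mir22hg and 0.28 (SE 0.26) for Wincr1 on the scaled values. It was -0.41 (SE 0.28) and -0.52 (SE 0.28) without scaling. For both transcripts the sign thus turned with the scaling.

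**Figure D2:**
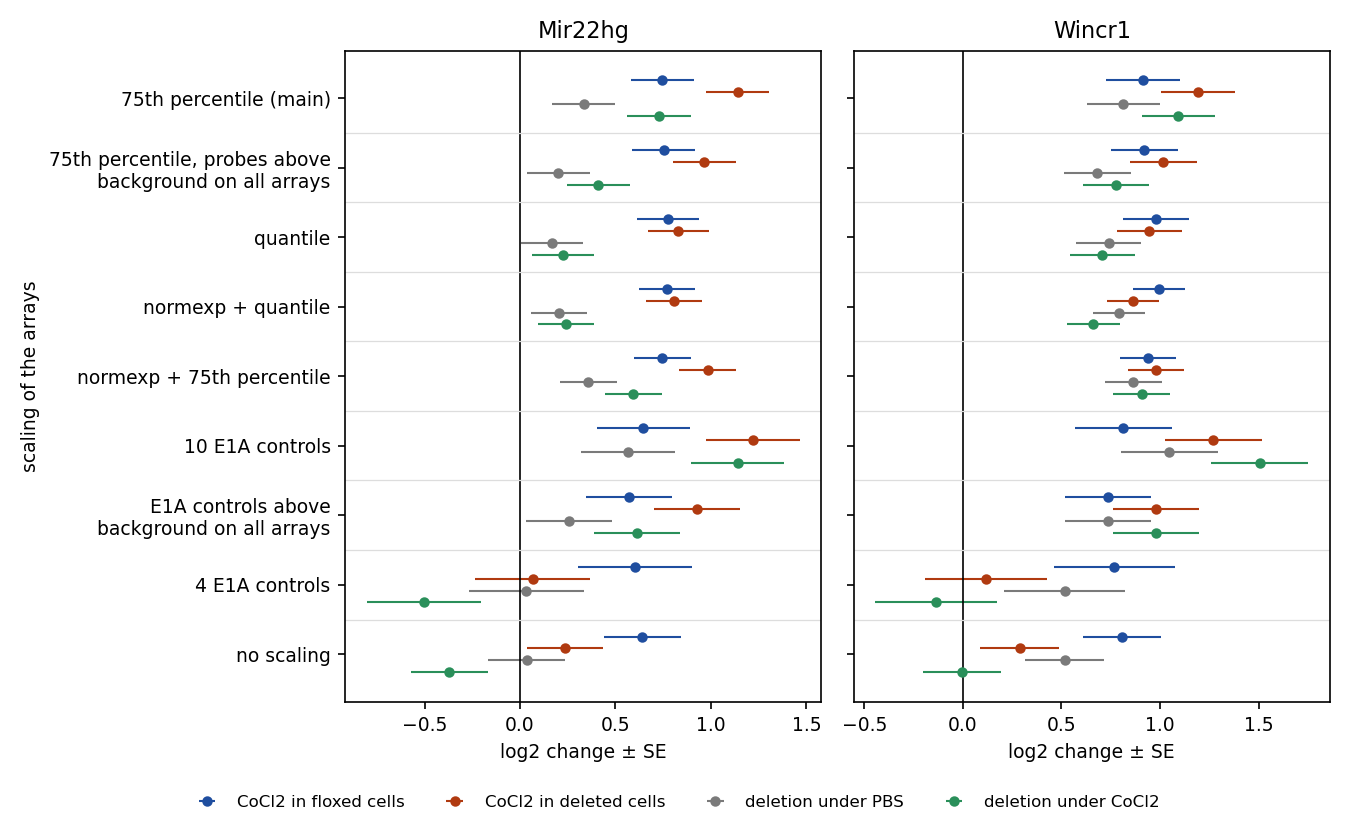
Log2 change ± SE of Mir22hg (left) and Wincr1 (right) in 4 contrasts, under the 75th percentile scaling and 8 other treatments of the arrays. The change with CoCl2 in floxed cells runs from 0.57 to 0.77 for Mir22hg and from 0.74 to 0.99 for Wincr1, while the change with deletion under CoCl2 runs from -0.50 to 1.14 and from -0.14 to 1.51.

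Over these 9 treatments, the change with CoCl2 in deleted cells ran from 0.07 to 1.22 for Mir22hg and from 0.12 to 1.27 for Wincr1. The lowest values came from scaling to 4 of the 10 E1A control probes, which read a transcript added to the labelling reaction. These 4 were chosen after their values were seen, and their mean signal (log2) lay between 10.6 and 11.7, highest on deleted CoCl2 replicate 2. The mean of all 10 was 7.28 to 8.10 on the deleted CoCl2 arrays and 8.56 to 9.32 on the others. Scaling to all 10 gave the highest values, 1.22 and 1.27. Minus the median of all features under the same treatment, the changes in deleted cells ran from 0.81 to 1.27 and from 0.81 to 1.32. The same measure ran from 0.06 to 0.66 for Mir22hg and from 0.54 to 1.03 for Wincr1 in the contrast of deletion under CoCl2.

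The arrays lay on 3 slides, and only some contrasts could be read within a slide. On slide 1, the floxed CoCl2 array stood 0.74 above the mean of the 3 floxed PBS arrays for Mir22hg (0.50 unscaled) and 1.20 above it for Wincr1 (0.96 unscaled). On slide 3, the 3 deleted CoCl2 arrays stood 0.97 above the deleted PBS array for Mir22hg (-0.022 unscaled) and 1.103 above it for Wincr1 (0.11 unscaled). Each of these differences rests on 1 array on either the CoCl2 or the PBS side. The deleted CoCl2 replicate 2 was scanned 4 days after the other arrays, and without it the scaled change with CoCl2 in deleted cells was 1.15 for Mir22hg and 1.28 for Wincr1.

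The difference between the 2 transcripts on the same array is left as it is by any scaling that subtracts a constant per array, but not by quantile normalization or normexp. With CoCl2, Wincr1 minus Mir22hg changed by 0.17 (SE 0.17) in floxed cells and by 0.05 (SE 0.25) in deleted cells. With deletion it changed by 0.48 (SE 0.11) in PBS and by 0.37 (SE 0.28) in CoCl2. With quantile normalization these 4 values were 0.21, 0.12, 0.57 and 0.48, and with normexp and the 75th percentile 0.19, -0.0022, 0.51 and 0.31. They are a description, since the pair was selected on the levels they come from. The SEs here come from the arrays of the 2 groups compared and not from the fit across the array. No slide held both genotypes under the same treatment, so genotype and slide cannot be told apart in the values with deletion.

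Among the 162 features with an established symbol, Wincr1 had the 3rd and Mir22hg the 8th largest rise with CoCl2 in floxed cells. In deleted cells Wincr1 was 4th and Mir22hg 6th. For deletion in PBS, Wincr1 was 5th and Mir22hg 36th, and for deletion with CoCl2 they were 11th and 33rd. Over all 70784 features, 2.35% had a larger rise than Wincr1 and 3.86% a larger rise than Mir22hg with CoCl2 in floxed cells, and in deleted cells these shares were 3.04% and 3.53%. For deletion they were 2.78% and 22.4% in PBS, and 6.06% and 22.2% with CoCl2. Wincr1 ranked among the first 11 in each of the 4 contrasts, and Mir22hg among the first 8 in those of CoCl2. The pair was selected on these levels, so the ranks and shares are only a description.

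The features most like each transcript were looked up among those with an established symbol, by Pearson's r over the 12 arrays. All values of a feature on an array share that array's scaling, so r was also taken without the deleted CoCl2 arrays, on unscaled values and on deviations from group means. For Mir22hg the closest was Mir133a-1hg, a host transcript of muscle microRNAs, with r = 0.974, and 238 of 70783 features were at least as alike. It was at 0.890 over 9 arrays without deleted CoCl2, at 0.887 unscaled and at 0.911 on deviations within groups. Smap1, a noncoding record of a gene that encodes a regulator of vesicle transport, followed with 0.960, then Brip1os, an antisense transcript, with 0.943. Norad, which binds Pumilio proteins, was at 0.933 and Wincr1 at 0.922. Unscaled, these 4 were at 0.608 for Smap1, 0.859 for Brip1os, 0.740 for Norad and 0.604 for Wincr1. On deviations within groups they were at 0.622, 0.611, 0.248 and 0.115.

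The levels of Mir133a-1hg were -2.06, -2.17 and -1.98 in floxed cells with PBS and -1.63, -1.74 and -1.45 with CoCl2. They were -1.65, -2.13 and -1.60 in deleted cells with PBS and -0.53, -0.87 and -1.10 with CoCl2. In each of the 4 groups the highest and the lowest array were the same as for Mir22hg. For Wincr1 the closest features were Gt(ROSA)26Sor (r = 0.930), the transcript of a locus used for transgenes, Morrbid (0.929), which regulates the survival of myeloid cells, Mir22hg (0.922), Rpph1 (0.912), the RNA of ribonuclease P, and Mir133a-1hg (0.911). Unscaled, these ran from 0.366 for Rpph1 to 0.604 for Mir22hg. On deviations within groups Gt(ROSA)26Sor was at 0.624, Mir133a-1hg at 0.294, Morrbid at 0.126, Mir22hg at 0.115 and Rpph1 at 0.100. At least as like Wincr1 as Gt(ROSA)26Sor were 1298 of 70783 features.

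**Figure D3:**
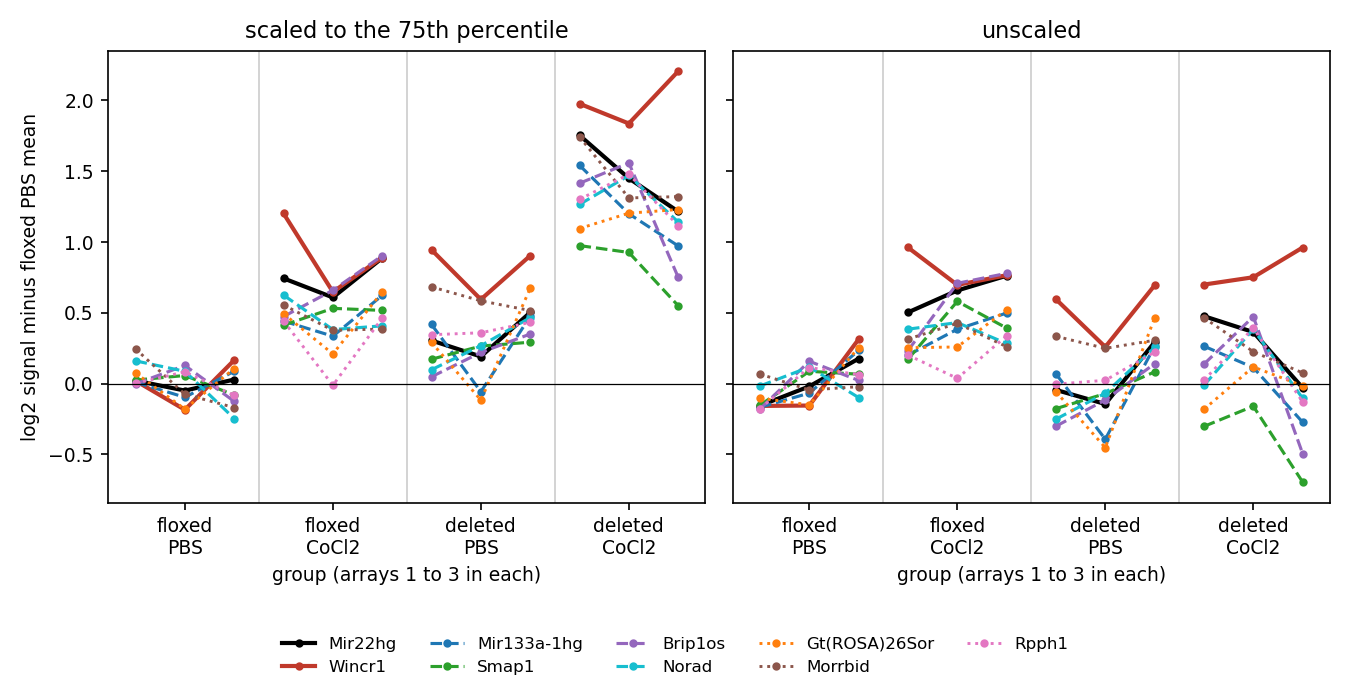
Log2 signal on each array minus the mean of the floxed PBS arrays, scaled (left) and unscaled (right), for Mir22hg and Wincr1 (solid) and the established features most like them (dashed for Mir22hg, dotted for Wincr1). Lines only link the arrays of a feature within a group. On the left the mean of each feature is highest in deleted cells with CoCl2, and on the right the values there lie between -0.70 and 0.96.

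Other noncoding transcripts were read from 5 lists prepared for microRNA hosts, hypoxia, growth arrest and p53, vessels and smooth muscle, and hosts of small nucleolar RNAs. Of 62 symbols besides Mir22hg and Wincr1, 20 had a probe matched by accession and 18 were tested. In floxed cells with CoCl2, limma called none of the 18 at an adjusted p below 0.05, with 4 at an unadjusted p below 0.05; over all features 2.21% were called higher and 2.73% lower. The median change of the 18 was -0.09, against 0.01 over all features. Lncpint, a p53-induced transcript on both the hypoxia and the p53 list, was the closest to the pair, at 0.89 (SE 0.23, limma adjusted p = 0.0507).

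In deleted cells with CoCl2, limma called 3 of the 18 higher and 2 lower, where 20.1% of all features were called higher and 32.7% lower. None of the 5 tested transcripts on the list of microRNA hosts was among them, with 1 at an unadjusted p below 0.05. Mir133a-1hg, a microRNA host that the list did not hold, was called higher, by 0.96 (SE 0.19, adjusted p = 0.00177, limma), and was at 0.055 without scaling. It is named for its likeness to Mir22hg, so its call is not independent of that choice. Lncpint rose by 0.90 (SE 0.23, adjusted p = 0.00719, limma), as the 1 call among 3 hypoxia-linked transcripts, and was at -0.0038 without scaling and -0.17 with the 4 E1A probes. Norad rose by 1.02 (SE 0.17, adjusted p = 0.000654, limma), though at 0.11 without scaling and -0.06 with the 4 E1A probes. Of 5 transcripts linked to growth arrest and p53, 2 rose (Lncpint and Norad) and 1 fell, Kcnq1ot1, the antisense transcript of an imprinted cluster.

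Of 5 vascular transcripts, 2 fell, Kcnq1ot1 and Fendrr, a transcript of the lateral mesoderm. Fendrr changed by -1.84 (SE 0.58, adjusted p = 0.0189, limma), with 1 of 3 arrays of deleted cells with CoCl2 well above background. Kcnq1ot1 was not well above background on any of those arrays and was lower than with PBS by at least 1.07-fold, against the dimmest signal that still counted as above background (adjusted p = 0.0443, limma; 0.0588 with replicate as a block within genotype). It was at 0.15 with quantile normalization. Of 7 hosts of small nucleolar RNAs, 1 rose, Snhg16, by 0.62 (SE 0.21, adjusted p = 0.0273, limma), and it was at -0.29 without scaling. The median of the 18 was 0.04 against -0.13 over all features.

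The 5 tested transcripts on the list of microRNA hosts did not pass the test for CoCl2 in either genotype, in the fit without a replicate block. Mir133a-1hg, outside the list, was at 0.47 in floxed cells (adjusted p = 0.229, limma) and passed it in deleted cells, as given above. In floxed and deleted cells the changes with CoCl2 were -0.13 and -0.50 for Carmn, host of miR-143 and miR-145 in smooth muscle, and 0.12 and -0.07 for Mir9-3hg. They were -0.48 and -0.53 for Meg3 and -0.74 and -0.78 for Rian, both of the imprinted Dlk1 cluster, and -0.54 and -0.02 for Ftx, from the X inactivation centre. Arrays of a group lay far apart for Rian (SE 0.68) and Meg3 (SE 0.43). For Rian, replicates 1 to 3 were at 1.68, -0.24 and 0.59 in floxed cells with PBS and 1.00, -0.88 and -0.32 with CoCl2. In deleted cells they were at 0.57, 0.45 and 2.05, and at -0.53, -0.22 and 1.48. For Rian and Meg3, each CoCl2 array lay below the PBS array of the same number and genotype. A fit with a replicate block is not given for them.

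**Figure D4:**
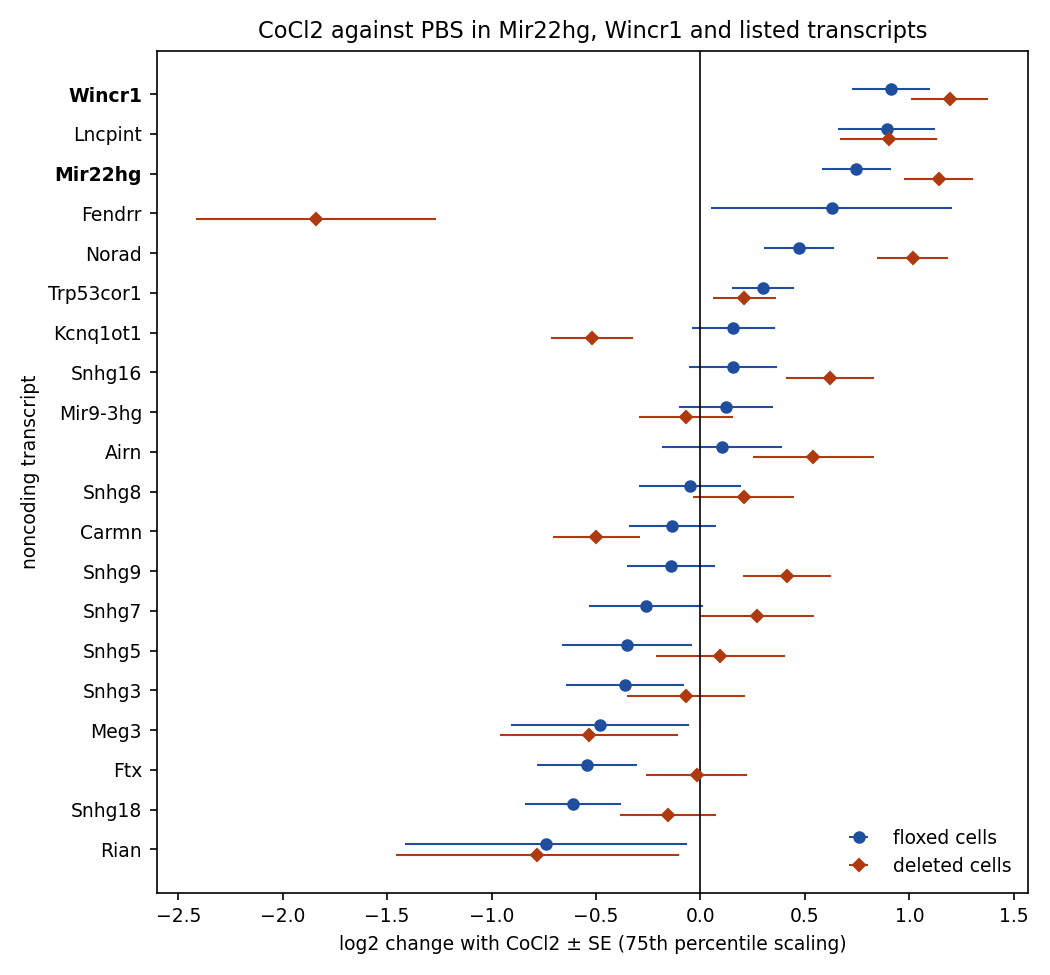
Log2 change ± SE with CoCl2 in floxed cells (circles) and deleted cells (diamonds) for Mir22hg, Wincr1 and the 18 tested transcripts of the 5 lists, on the scaled values. Wincr1, Lncpint and Mir22hg have the 3 largest changes in floxed cells, at 0.91, 0.89 and 0.75.

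For deletion in PBS, limma called none of the 18, with 3 at an unadjusted p below 0.05 and 0.52% of all features called higher and 0.931% lower. With CoCl2 it called 6 higher and 2 lower in deleted cells, where 31.9% of all features were called higher and 35.9% lower. The 6 were Norad, at 0.82 (SE 0.17, adjusted p = 0.00127, limma), and 5 of the 7 hosts of small nucleolar RNAs: Snhg16 at 1.23, Snhg3 at 0.96, Snhg5 at 0.95, Snhg9 at 0.83 and Snhg7 at 0.68. Without scaling these 6 were at -0.28, 0.13, -0.14, -0.14, -0.27 and -0.42. The call of Snhg7 was lost without any 1 of 8 arrays. Some of 14 alternatives with all arrays ended a call while its direction held. There were 3 for Norad, 1 for Snhg16, 2 for Snhg3, 4 for Snhg5, 3 for Snhg9 and 4 for Snhg7. The 2 lower were Fendrr, at -2.69 (SE 0.58, adjusted p = 0.00163, limma), and Kcnq1ot1, on no deleted CoCl2 array well above background and lower by at least 2.06-fold on the scaled values (adjusted p = 8.42e-05, limma). Over 13 alternatives with all arrays, the change of Kcnq1ot1 ran from -2.69 to -0.19, and 1 of them ended its call. Fendrr was well above background on 1 of the 3 deleted CoCl2 arrays, where its levels were -5.60, -2.77 and -5.28, so its size is not exact. None of the 5 listed microRNA hosts and none of the 3 hypoxia-linked transcripts was called. Mir133a-1hg, outside the list, was called higher (0.77, adjusted p = 0.00404, limma) and was at -0.33 without scaling. This call, too, is not independent of its choice for likeness to Mir22hg. The p53 list had 1 higher and 1 lower and the vascular list 2 lower. For the difference of the CoCl2 effects, none of the 18 was called, with 3 at an unadjusted p below 0.05 and 2.84% of all features called higher and 17.7% lower.

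Among the 10 nearest genes on each side of each transcript, 1 had a probe matched by accession: Gm35337, 5 places from Mir22hg. It is a predicted noncoding gene on the side of Wdr81. Its levels in floxed cells were -2.50, -2.73 and -2.68 with PBS and -2.71, -2.51 and -2.62 with CoCl2, a change of 0.02. In deleted cells with PBS they were -3.56, -3.22 and -3.43, and with CoCl2 the probe was not well above background on any array. Deleted cells with CoCl2 were lower than floxed cells with CoCl2 by at least 1.56-fold (adjusted p = 0.000244, limma), and the change was 0.07 after normexp background correction with the 75th percentile. No neighbour of Wincr1 had a matched probe, so Mtap, Cdkn2a, Cdkn2b and the interferon genes were not analysed here.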

How the data were processed

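RNA from VSMCs was labelled with cyanine-3 for custom Agilent arrays of 1 colour, per the labels' protocols. The scanner files as deposited give the intensity of each spot, linear and background-corrected, from Agilent Feature Extraction 11.5.1.1 per the file headers (9.1 per the submitters' processing notes). The authors' deposited value table holds log2 intensity and matched the scanner values minus a constant per array to within 0.01 for all but 3 values, with the 75th percentile of each array near 0. It was used as an alternative. Per the file headers the design was made on mm9, so no coordinates were taken from the array, and the place of the probes within the transcripts was not used here.

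Control spots were left out, log2 signals were averaged over a probe's spots, and the 75th percentile of all 97836 probes was subtracted per array. Probes were kept if 1 group had all 3 arrays well above background (70909), with the brightest probe per symbol (70784 features). Groups came from the labels. The fit was limma 3.58.1 in R 4.3.3 on 12 arrays with 1 mean per group and Benjamini-Hochberg adjusted p below 0.05; it was tested on simulated data. A fold is 2 to the power of the scaled log2 change. Symbols came from RefSeq (GRCm38.p6): 4658 of 13019 probes with a RefSeq accession were matched. The features named are the pair, the listed transcripts, the 10 nearest genes on each side and the 5 established features most like each transcript. The members and lists were chosen with earlier results of these data known. Where a group had no array well above background, only a bound is given: the brighter group's mean against, per array, its own signal or the dimmest signal counted as above background, whichever was higher.

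Alternatives were other normalizations, E1A control scaling, no scaling, other filters, slide and replicate blocks, each array left out and each spot alone. The normexp alternative used the median signal, since the files hold no mean signal column. Same-numbered floxed arrays deviated together from their group means over all features (correlations 0.397 to 0.452), and deleted ones did not all do so (-0.144 to 0.285). The number of arrays limits the precision.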

Additional observations from a re-analysis of the deposited data

How the results depend on the processing

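With CoCl2 in floxed cells, the direction held for both transcripts under all alternatives run. The values that moved by more than the spread between arrays were 0.57 for Mir22hg with E1A probes above background on all arrays, and 1.20 for Wincr1 with slide as a fixed block. Leaving out each array in turn gave 0.68 to 0.81 for Mir22hg and 0.77 to 1.05 for Wincr1. The causes of the differences below were not tested. The deleted CoCl2 arrays had lower signal over background than the others.

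With CoCl2 in deleted cells, Mir22hg was at 0.83 with quantile normalization, 0.81 with normexp and quantile, 0.96 with the percentile of probes above background on all arrays, 0.93 with E1A probes above background, 0.066 with 4 E1A probes and 0.24 without scaling. Wincr1 was at 0.95, 0.86, 0.98 with normexp and the 75th percentile, 0.98 with E1A probes above background, 0.12 with 4 E1A probes and 0.29 without scaling. Leaving out an array gave 1.00 to 1.27 and 1.08 to 1.28.

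For deletion in PBS, Mir22hg was at 0.57 with 10 E1A probes, 0.034 with 4 and 0.034 without scaling. Wincr1 was at 1.05, 0.52 and 0.52, and at 1.20 with slide as a fixed block. Leaving out an array gave 0.25 to 0.40 and 0.72 to 0.92.

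For deletion with CoCl2, Mir22hg was at 0.22 with quantile, 0.24 with normexp and quantile, 0.41 with the percentile of probes above background, 1.14 with 10 E1A probes and 0.47 with slide as a fixed block, and turned to -0.50 with 4 E1A probes and -0.37 without scaling. Wincr1 was at 0.71, 0.66, 0.78 and 1.51, and turned to -0.14 and -0.0042. Leaving out an array gave 0.59 to 0.86 and 0.96 to 1.24.

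The difference of the CoCl2 effects was 0.056, 0.037, 0.21 and 0.57 for Mir22hg with quantile, normexp and quantile, the percentile of probes above background and 10 E1A probes, and turned to -0.54 with 4 E1A probes and -0.41 without scaling. For Wincr1 it was 0.041 with normexp and the 75th percentile and turned to -0.032 with quantile, -0.13 with normexp and quantile, -0.65 with 4 E1A probes, -0.52 without scaling and -0.10 with slide as a fixed block. Leaving out an array gave 0.25 to 0.52 and 0.15 to 0.42.

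The count of all features called changed more. In floxed cells with CoCl2 it was 3496, against 1799 with 10 E1A probes, 1040 with 4 and 545 with slide as a fixed block (1075 to 4447 leaving out an array). In deleted cells it was 37383, against 23029 for probes above background on all arrays and 16286 with slide (29314 to 39422). For deletion in PBS it was 1027, against 2282 with quantile, 5184 with normexp and quantile, 9591 with normexp and the 75th percentile, 3309 with the percentile of probes above background, 66 with 10 E1A probes, 3977 with those above background, 4088 with 4, 7838 without scaling, 442 without a filter, 1689 for probes above background and 11 with slide as a random block (1 to 4479). For deletion with CoCl2 it was 48010, against 31619 for probes above background and 18648 with slide as a fixed block (42317 to 51167). For the difference of effects it was 14519, against 6930, 5403 and 6717 with the 3 normalizations, 28463 with 4 E1A probes, 30941 without scaling, 5148 for probes above background, 223 with slide as a fixed block and 7289 as a random one (7433 to 19381).

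The first count moved by over 1.5 times without any of the 3 floxed PBS arrays or floxed CoCl2 replicates 2 and 3, the third without any array but deleted CoCl2 replicate 3, and the last without floxed PBS replicate 2, floxed CoCl2 replicates 2 and 3 or deleted PBS replicates 1 and 2. Without scaling, the share of calls that were higher fell from 44.7% to 25.8% with CoCl2 in floxed cells, from 38.1% to 1.57% in deleted cells, from 35.8% to 2.54% for deletion in PBS (80.3% with 10 E1A probes) and from 47.0% to 0.45% for deletion with CoCl2. Leaving out 1 array ended the call of Kcnq1ot1 in deleted cells for 7 of 12 arrays, Fendrr for 4 and Snhg16 for 3, and with deletion under CoCl2 that of Snhg7 for 8, Snhg5 for 3 and Snhg3 for 1. The values of listed transcripts that turned direction with 4 E1A probes and without scaling were, for deletion with CoCl2, -0.41 and -0.28 for Norad, -0.40 and -0.27 for Snhg9, -0.55 and -0.42 for Snhg7 (-0.086 with slide as a fixed block), -0.28 and -0.14 for Snhg5 and -0.27 and -0.14 for Snhg3, and -0.0035 for Snhg16 with 4 E1A probes alone. In deleted cells with CoCl2 they were -0.46 and -0.29 for Snhg16, -0.17 and -0.0038 for Lncpint, and -0.060 for Norad with 4 E1A probes. Kcnq1ot1 turned to 0.15 with quantile, 0.038 with normexp and quantile and 0.32 with normexp and the 75th percentile, and Gm35337 to 0.067 with the last of these for deletion with CoCl2. In deleted cells with CoCl2, some alternatives with all arrays ended a call while its direction held. There were 3 of 15 for Snhg16, 1 of 15 each for Lncpint and Norad, 5 of 14 for Kcnq1ot1 and 3 of 14 for Fendrr.

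With the replicate number as a block, the changes of both transcripts were the same (0.75 and 0.91 in floxed cells, 1.14 and 1.19 in deleted cells), since each number stands in every group, and 3434, 37900, 1100, 48616 and 14113 features were called in the 5 contrasts in the order above. The block within genotype ended 1 call among listed transcripts, that of Kcnq1ot1 in deleted cells. Listed transcripts not called in the main fit were not read again with a block.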
